A study of Homo sapiens with 17 samples.

Results

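The ribosomal DNA (rDNA) repeat encodes the 45S precursor that RNA polymerase I transcribes in the nucleolus. Each unit reads, in order, a 5′ external transcribed spacer, 18S rRNA, a first internal spacer, 5.8S rRNA, a second internal spacer, 28S rRNA and a 3′ external spacer, and an intergenic spacer separates it from the next unit. The spacers are removed while the precursor is processed, and terminator elements that bind TTF1 lie past the end of the 28S gene. In this family of genes many near-identical copies are transcribed at once, so reads from one copy can rarely be told from reads of another.

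Pausing sites of this repeat were chosen by place alone: every site on the contigs KI270733v1 and GL000220v1, and every site in the 250 kb of chromosome 21 from position 8200000, which are the rDNA copies of the GRCh38 (hg38) assembly. This gave 1007 sites of the 158141 listed in any of 4 tables. The cells were HEK293, an established human embryonic kidney line, and polymerases were run on for 0.5, 2, 8 or 32 min with sarkosyl, a detergent under which engaged polymerases elongate but many chromatin proteins are removed, or without it. The series describes its duplicates as biological, and 16 libraries condense into 4 tables, 1 for each buffer and replicate number (below, replicate 1 or 2 of a buffer means its table); 1 further sample, labelled Trp treatment, has no table and was not analysed here. All groups share the cell line and the medium. The libraries of the buffers were registered in separate blocks of the public record, so a batch that goes with that split and the buffer itself cannot be told apart.

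Each table row gives a pausing time, which is the reciprocal of the median of a fitted rate; its unit was not stated, so times are printed as deposited. The rDNA sites numbered 509 of 48566 (1.05%) in replicate 1 with sarkosyl, 526 of 47713 (1.10%) in replicate 2 with sarkosyl, 341 of 66089 (0.516%) in replicate 1 without sarkosyl and 340 of 41769 (0.814%) in replicate 2 without it. The tables hold no reads, so the depth behind a site is unknown. The labels give no batch. With 2 tables against 2, a two-sided exact permutation test cannot go below p = 0.333, so levels and counts of the buffers are described without a test.

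Annotation placed 8 units in these sequences, 4 on chromosome 21 and 2 on each contig. Of these, 5 carry a complete 45S gene (RNA45SN1 to RNA45SN5) and 3 are incomplete. All 1007 sites were on the plus strand, which is the sense strand of every unit, and 0 were on the minus strand. On the rest of chromosome 21 each table listed both strands, with 324 to 473 plus-strand and 437 to 673 minus-strand sites. GENCODE also annotates plus-strand lincRNA genes across whole chromosome 21 units, FP671120.1 over the first, with 176 of the sites, and FP236383.1 over the third, with 141. Inside a 45S unit lay 808 sites, 179 lay downstream of one and 20 upstream. All 4 tables listed 72 of the sites, and 529 were in 1 table only. Laid over one repeat by their distance from the nearest rRNA gene end, the sites fell on 528 positions, of which 228 were seen in at least 2 units and 39 in all 4 tables. The units were not aligned by sequence, so 1 place can count as more than 1 of these positions.

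Sequence, taken from GENCODE release 29 transcripts on GRCh38, is shown for chosen stretches, which need not be typical of the sites of the repeat. The first stretch is shown because 6 sites of the 5′ external spacer crowd into it. It lies in the microRNA precursor gene MIR3648-1 (chromosome 21, 8208473 to 8208652, plus strand), within the 5′ spacer of the first chromosome 21 unit, and spans chr21:8208585-8208644. Capitals mark the bases at which a site was listed in any table.
MIR3648-1: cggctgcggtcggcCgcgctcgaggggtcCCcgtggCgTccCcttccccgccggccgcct
Of the 6 sites, 5 fell on a C and 1 on a T, in a stretch of 60 bases of which 83.3% were G or C. Positions were read as counted from 1 because, at exonic sites of chromosome 1, that reading put 93.2% to 96.5% of sites on C or G, against 23.9% to 82.0% at the bases beside them. The base differed between tables. It was C at 69.4% to 73.8% of these sites with sarkosyl and at 51.3% and 51.6% in replicate 1 without it, while in replicate 2 without it G made up 65.6% and 76.1% and C 28.3% and 20.4% on the plus and minus strands. The site on the first capital was timed 0.587 in replicate 1 and 1.23 in replicate 2 with sarkosyl. The only one of the 6 listed without sarkosyl, at 8208615, was timed 0.734 in replicate 1 with sarkosyl and 4.42 in replicate 1 without it.

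The second sequence is the 5.8S gene of the same unit (RNA5-8SN2, chr21:8212572-8212724, plus strand), shown because the 5.8S genes held 0 sites in any of the 8 units and in any table. Capitals mark C and G, which made up 88 of its 153 bases.
RNA5-8SN2: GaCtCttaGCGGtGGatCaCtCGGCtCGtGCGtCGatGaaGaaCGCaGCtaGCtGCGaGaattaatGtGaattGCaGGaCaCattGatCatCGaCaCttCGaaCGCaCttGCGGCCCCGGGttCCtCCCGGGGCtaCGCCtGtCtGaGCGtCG
C and G therefore made up 57.5% of a gene with no listed site.

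**Figure D1:**
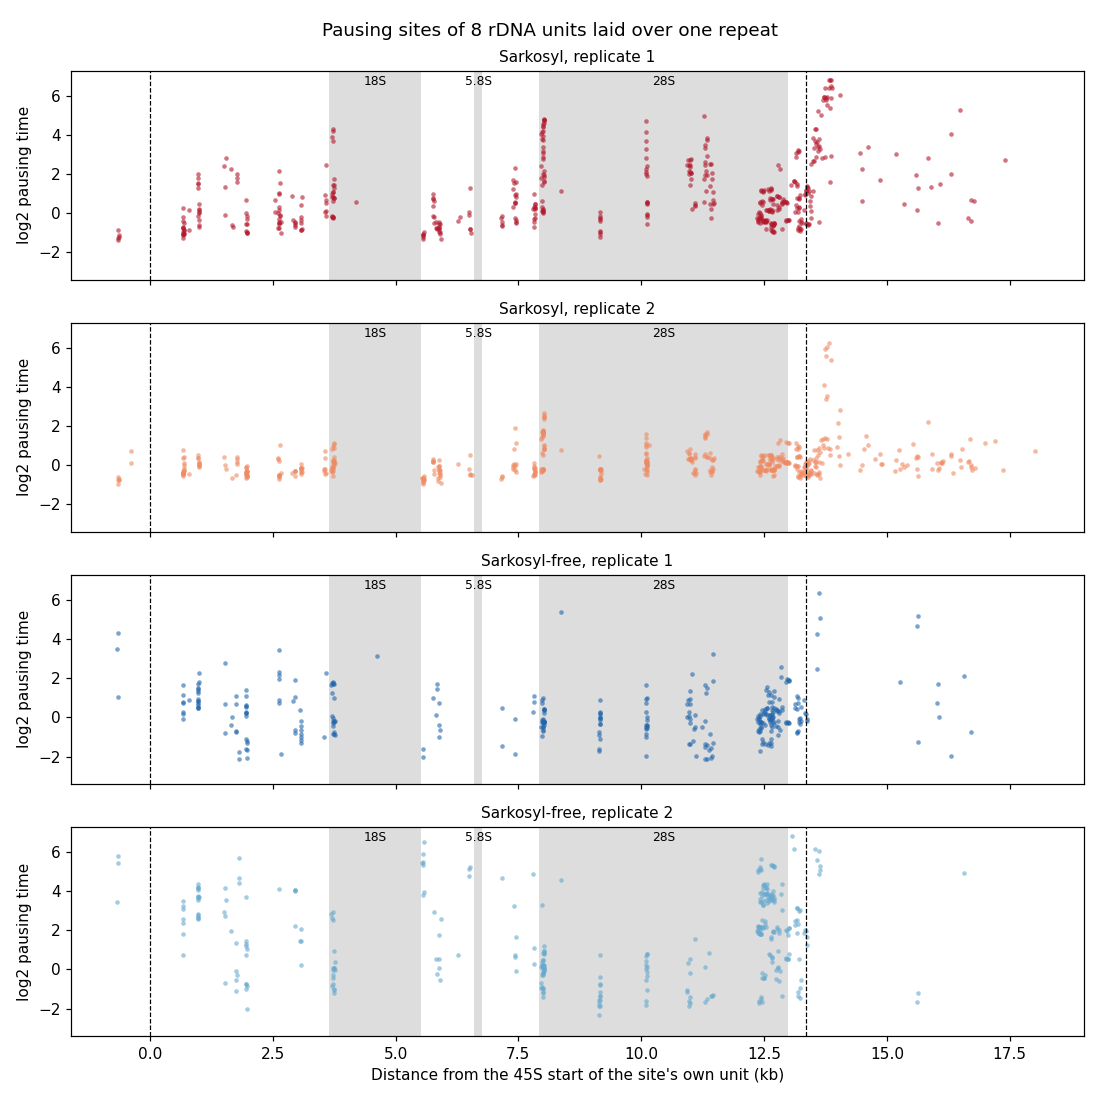
Log2 pausing time of rDNA sites (y axis, deposited units) against distance from the 45S start of the site's own unit in kb (x axis), 1 panel per table and 1 point per site; grey bands are the 18S, 5.8S and 28S genes and dashed lines the 45S start and end, at their medians over the complete units. Of the 1007 sites, 993 are drawn and 14 lie outside the axis; sites stand in narrow columns, 28S has long empty stretches, and past the 45S end the tables with sarkosyl hold many more sites than those without.

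The sites were not spread along the repeat but stood in narrow groups. Of the rDNA sites, 43.3% to 54.6% had another site within 10 bp in the same table, against 11.0% to 20.0% of all other sites. The median distance to the nearest site was 9 to 12 bp in rDNA and 219 to 770 bp elsewhere. The 2 sets thus differ in density, and the comparison by itself cannot separate grouping from density. In the 28S genes of the complete units, no table listed a site between 99 and 1221 bp from the gene start, between 1250 and 2168 bp, between 2198 and 3037 bp, or between 3540 and 4468 bp. Over all units the 28S genes held 206 and 203 sites with sarkosyl, against 183 and 191 without it. The 28S gene carried 40.5% and 38.6% of the rDNA sites with sarkosyl, and 53.7% and 56.2% without it. The shares of the buffers did not overlap and were higher without sarkosyl, although the number of 28S sites was lower there.

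The plot of site numbers by part gives the layout of each table. In the complete units, sites per kb of 28S came to 7.03 and 6.67 with sarkosyl, against 6.24 and 6.56 without it. The internal spacers held 3.67 and 3.09 sites per kb with sarkosyl, against 0.751 and 1.50 without it. The 5′ external spacer held 3.02 and 2.85 sites per kb with sarkosyl, against 2.19 and 1.81 without it. The short 3′ external spacer was the densest transcribed part, with 17.7 and 16.0 sites per kb against 11.0 and 12.1. The 18S gene held 1.71 and 2.03 sites per kb with sarkosyl, against 1.71 and 1.50 without it. The tables with sarkosyl were denser than those without in each of these parts but 18S, where 1 table of each buffer had the same value.

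**Figure D2:**
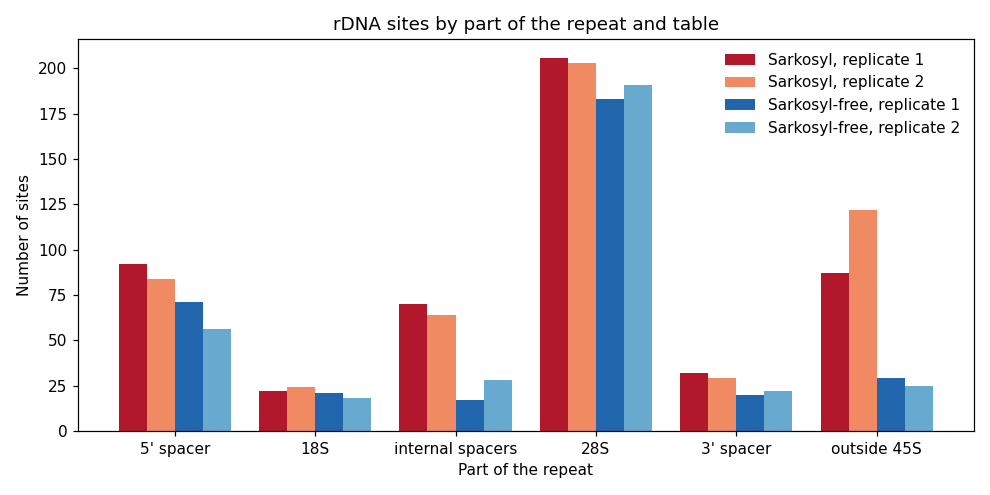
Number of rDNA sites (y axis) in each part of the repeat (x axis), 1 bar per table. The 28S gene holds 183 to 206 sites in every table, while the part outside 45S holds 87 and 122 sites with sarkosyl against 29 and 25 without it.

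Past the end of the 45S gene, where polymerase I terminates, most sites within 5 kb were listed with sarkosyl. Sites downstream of a unit made up 16.1% and 21.7% of the rDNA sites with sarkosyl, and 6.45% and 4.41% without it. The first 500 bp after the 45S end held 53 and 55 sites with sarkosyl, against 9 and 11 without it, that is 21.2 and 22 against 3.6 and 4.4 sites per kb. The next 500 bp held 7 and 10 sites with sarkosyl and 0 in both tables without it. From 1 to 2 kb downstream there were 7 and 15 sites with sarkosyl, against 1 and 0 without it, and from 2 to 5 kb there were 15 and 34 against 9 and 3. The counts of the buffers did not overlap in any of these windows. Beyond 5 kb the order was the other way, with 0 sites in both tables with sarkosyl, against 3 and 1 without it.

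The level of the rDNA sites was lower than that of all other sites in each table. The median rDNA pausing time was 1.40 against 1.49 for other sites in replicate 1 with sarkosyl, and 1.02 against 1.35 in replicate 2 with sarkosyl. Without sarkosyl it was 1.03 against 2.24 in replicate 1 and 3.15 against 8.06 in replicate 2. On the log2 scale rDNA minus other sites was -0.25 ± 0.21 (SD, n = 2 tables) with sarkosyl and -1.24 ± 0.16 (SD, n = 2 tables) without it. The gap was thus larger without sarkosyl in both tables, a difference that was not tested.

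The gap without sarkosyl was smaller among the sites with a more certain fit. The deposited standard deviation of a rate over its mean had a median of 1.48 for rDNA and 1.13 for other sites in replicate 2 without sarkosyl, and of 1.68 against 1.74 in replicate 1. Among the sites at or below their table's median of that ratio, rDNA minus other sites was 0.21 in replicate 1 and -0.28 in replicate 2, a mean of -0.039 on the log2 scale. With sarkosyl the same restriction gave -0.05 and -0.19. This restriction selects on the time as well. The median of the sites it kept was 15.5 for rDNA and 18.9 for other sites in replicate 2 without sarkosyl, and 0.749 and 0.649 in replicate 1. The part of certainty in the gap was not tested.

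**Figure D3:**
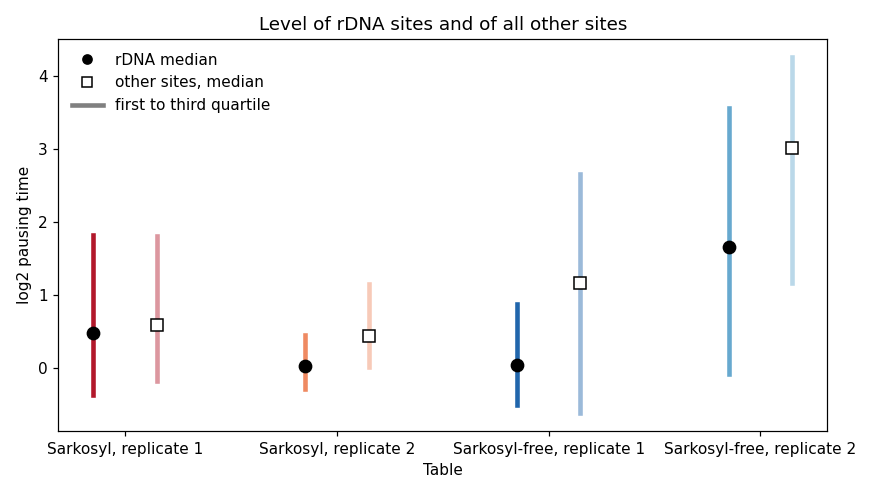
Median log2 pausing time (y axis) of rDNA sites (filled circles) and of all other sites (open squares) in each table (x axis), with bars over the interquartile range of sites. The rDNA median is the lower one in all 4 tables, and the distance is larger in the tables without sarkosyl.

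Within the repeat, the parts were ordered differently in the buffers. In the 5′ external spacer the median time was 0.881 and 0.824 with sarkosyl, against 1.46 and 6.29 without it. Relative to the median of all rDNA sites this was -0.49 ± 0.25 with sarkosyl and 0.75 ± 0.35 without it (log2, SD, n = 2 tables). The 5′ spacer thus stood below the rDNA median in both tables with sarkosyl and above it in both tables without.

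The internal spacers had the same split in signs and the 28S gene the opposite one, both with a wide spread without sarkosyl. Relative to all rDNA sites, the internal spacers were at -0.54 ± 0.28 with sarkosyl and 0.59 ± 0.74 without it (log2, SD, n = 2 tables). Neither internal spacer had that split alone: without sarkosyl the first stood at -0.17 and 2.16 and the second at 0.25 and -0.58. The 28S gene was at 0.14 ± 0.04 with sarkosyl and -0.54 ± 0.48 without it. For 28S and the internal spacers, the spread between the tables without sarkosyl was as large as the value or nearly so. The 18S gene was at 0.28 ± 0.21 with sarkosyl and -0.86 ± 1.10 without it, the latter less than its own spread. The 3′ external spacer stayed close to the rDNA median with sarkosyl, at -0.08 ± 0.06, and stood at 0.46 ± 0.003 without it. Its value with sarkosyl was 0.055 when each repeat position was counted once.

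The copies of the repeat gave nearly the same times. Between units at the same repeat position, the median absolute log2 difference was 0.16 and 0.10 with sarkosyl, over 468 and 453 pairs of sites. It was 0.27 and 0.25 without sarkosyl, over 323 and 333 pairs. The interquartile range over all rDNA sites was 2.19 and 0.73 with sarkosyl, against 1.39 and 3.65 without it. The differences between copies were small beside that range, though a difference between pairs and a range over sites are unlike measures. Whether reads shared between copies bring their times together was not tested. How reads that match several units were placed was not given in the sources used here, so the units are not replicates, and they count as 1 observation of a position.

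Sites of the repeat were found again more often than others between the tables of a buffer. With sarkosyl 306 rDNA sites were common to both tables, 60.1% of those in replicate 1 and 58.2% of those in replicate 2, against 36.9% and 37.5% of other sites. Without sarkosyl 198 were common, 58.1% and 58.2%, against 20.8% and 33.1% of other sites. Across those shared sites Spearman's rho of the times was 0.89 with sarkosyl (n = 306 sites) and 0.49 without it (n = 198 sites). For other sites rho was 0.69 and 0.47. These correlations run over sites that share libraries and, within the repeat, include copies of one position.

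Across buffers the order of times was not kept. Between a table with and a table without sarkosyl, rho ranged from -0.31 to -0.03 over 108 to 155 shared rDNA sites, and from 0.04 to 0.09 over other sites. Between buffers 20.5% to 30.5% of the rDNA sites of a table with sarkosyl, and 31.8% to 45.5% of those of a table without it, were shared.

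The start of the 28S gene held the positions seen most often. The 28S start could be placed in 7 units and the 28S end in 5, so positions named from the end can have fewer values. Position +71 from the 28S start was listed in 7 units in all 4 tables. Its times ran from 15.6 to 23.3 (median 18.2) in replicate 1 and from 2.58 to 3.46 (median 3.21) in replicate 2 with sarkosyl, and from 0.705 to 0.932 (median 0.842) and from 0.835 to 1.18 (median 0.889) without it. All 7 units were longer in both tables with sarkosyl than in either table without it, and the tables with sarkosyl differed from each other several-fold.

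Position +99 behaved in the same manner and was also listed in 7 units in every table. It ran from 13.5 to 27.8 (median 27.0) and from 3.09 to 6.33 (median 5.56) with sarkosyl, and from 1.16 to 1.96 (median 1.33) and from 0.950 to 1.30 (median 1.06) without it. Position +91 lay between them along the gene but had lower times, with medians of 3.64 and 1.76 with sarkosyl in 7 units and of 0.856 in 7 units of replicate 1 without it. At all 3 positions the buffers did not overlap. Position +67 was listed at medians of 7.25 and 3.28 with sarkosyl and, in replicate 2 alone, 0.505 without it.

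Farther into 28S, position +1228 and the last base but one behaved otherwise. Position +1228 was listed in 5 units in every table, with medians of 0.858 and 0.871 with sarkosyl, against 0.968 and 0.597 without it, so that the buffers overlapped. The site 1 bp before the 28S end was listed in all 5 complete units, at 0.765 to 0.788 and 1.08 to 1.11 with sarkosyl, and at 0.816 to 0.856 and 1.43 to 1.70 without it. Here the tables of one buffer differed more than the buffers did.

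**Figure D4:**
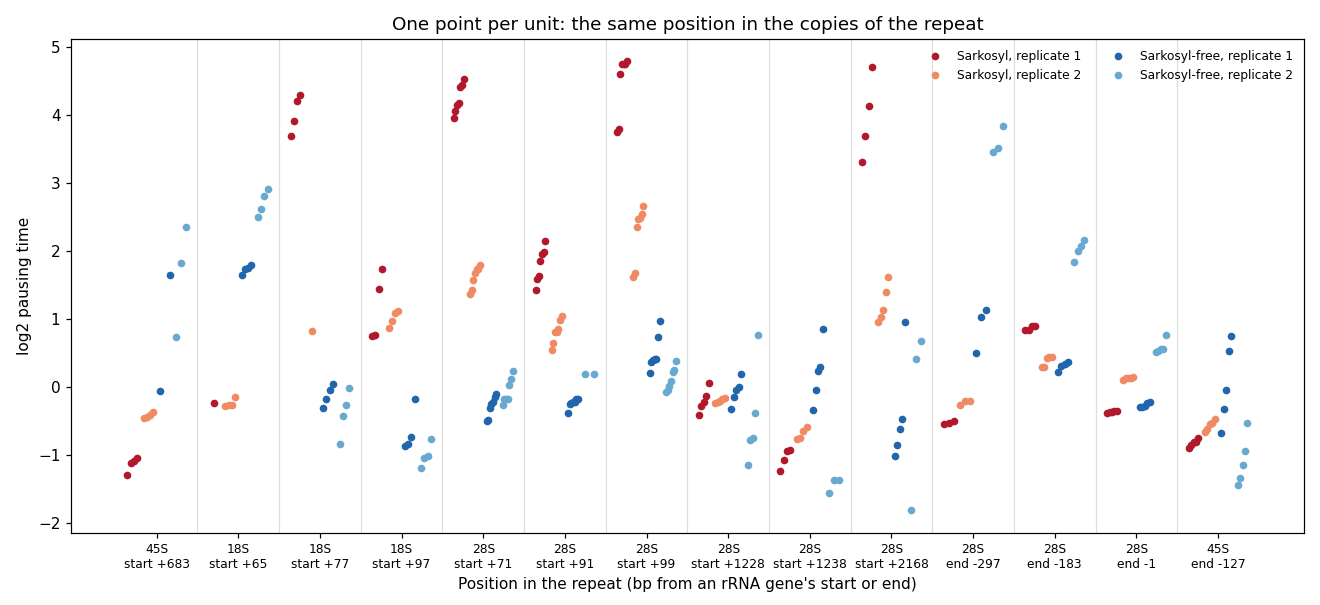
Log2 pausing time (y axis) at the 14 positions of the repeat with at least 12 values and a value in every table, named by their distance in bp from an rRNA gene's start or end (x axis), 1 point per unit and table, coloured by table. Points of 1 table mostly lie close together. By their medians, both tables with sarkosyl lie above both without it at 28S start +71, +91, +99 and +2168 and at 18S start +77 and +97, and below both at 45S start +683, 18S start +65 and 28S end -297; the other 5 positions are mixed.

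Near the 28S end, the positions 297 and 296 bp before it had the opposite order to the start of the gene. The site 297 bp before the 28S end was listed in 3 units, at 0.690 to 0.705 and 0.836 to 0.867 with sarkosyl, and at 1.42 to 2.20 and 11.0 to 14.3 without it. The site 296 bp before the end was listed in the other 2 complete units, at medians of 0.702 and 0.853 with sarkosyl, against 2.12 and 12.8 without it. Both were shorter with sarkosyl in every unit and table that listed them, and replicate 2 without sarkosyl was the longest. Other positions near the end were mixed. The site 584 bp before the end had the same order by its medians, at 0.824 and 0.807 with sarkosyl, against 0.947 and 3.94 without it. So did the site 477 bp before it, at 0.750 to 0.795 in replicate 1 with sarkosyl, against 1.11 to 1.36 and 4.41 to 5.05 without it. Replicate 2 with sarkosyl did not list that site. The site 161 bp before the end, listed in 2 units, was longer with sarkosyl, at 4.76 to 5.56 and 2.22 to 2.43, against 0.647 to 0.874 and 0.962 to 1.93 without it. At 183 and 338 bp before the end the buffers overlapped.

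The 18S gene carried its sites almost only near its start. Between 60 and 110 bp from the 18S start lay 21 of 22 and 24 of 24 sites with sarkosyl, and 20 of 21 and 18 of 18 without it. They came from 4 units, those of RNA45SN2 and RNA45SN3 on chromosome 21 and both on KI270733v1. The 1 other 18S site without sarkosyl, at 8.85 in replicate 1, lay on chromosome 21 opposite the lincRNA gene FP236383.3, which is annotated on the minus strand at 8437629 to 8438551.

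Positions 32 bp apart at this 18S start differed in opposite directions. Position +97 was longer with sarkosyl in all 4 units, at 1.69 to 3.33 and 1.83 to 2.18 with it and 0.547 to 0.883 and 0.440 to 0.587 without it. Position +65 was shorter, at 0.853 in the 1 unit listed by replicate 1 and 0.824 to 0.908 in 4 units of replicate 2 with sarkosyl, and 3.13 to 3.47 and 5.68 to 7.52 without it. Position +77 stood at a median of 16.8 in replicate 1 and at 1.77 in 1 unit of replicate 2 with sarkosyl, against 0.926 and 0.789 without it.

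In the 5′ external spacer the recurring positions differed in both directions. Position +683 from the 45S start had medians of 0.466 and 0.744 with sarkosyl, against 2.04 and 3.53 without it, in 2 to 4 units a table. Position +983 had medians of 2.79 and 1.28 with sarkosyl, against 1.46 and 6.13 without it, so that the buffers overlapped. The position 1684 bp before the 18S start was longer with sarkosyl, with medians of 0.821 and 0.797 against 0.405 and 0.400, in 2 to 3 units a table. On chromosome 21, the site at 8208946, 685 bp before the 18S start, was timed 0.737 and 0.692 with sarkosyl, against 2.08 and 16.1 without it. In the first internal spacer, position +43 after the 18S end had medians of 0.462 and 0.583 with sarkosyl and of 41.7 in replicate 2 without it, where replicate 1 listed no site.

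The longest times with sarkosyl lay past the 45S end. Among the 306 sites in both tables, the longest were on chromosome 21 at 8219812, 510 bp past the 45S end (83.3 and 76.9), on chromosome 21 at 8219719, 417 bp past it (83.3 and 62.5), and on KI270733v1 at 136062, also 417 bp past it (62.5 and 66.7). The longest time of replicate 1 with sarkosyl was shared by 3 sites, and the longest of replicate 2 was the 76.9 just named. Neither position was listed without sarkosyl. Since rates were deposited with 3 decimals, times this long take few distinct values.

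The shortest times with sarkosyl lay upstream of a unit. KI270733v1 at 166706, which is 649 bp before the inferred 45S start of the second unit on that contig, was the shortest site of both tables, at 0.384 and 0.513. The other shortest ones were in the first internal spacer, on KI270733v1 at 173272 (0.408 and 0.541) and on chromosome 21 at 8394595 (0.428 and 0.524). All 3 were shorter than any part's median in their tables.

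Without sarkosyl, the shortest of the 198 sites in both tables were in 28S and the 5′ spacer. They were GL000220v1 at 158541, position +1221 of 28S (0.324 and 0.200), GL000220v1 at 151366, in the 5′ spacer (0.405 and 0.245), and KI270733v1 at 133715, 1565 bp before the 28S end (0.254 and 0.395). The longest were chromosome 21 at 8258564, in the 28S fragment of an incomplete unit (41.7 and 23.8), KI270733v1 at 166701 (20.0 and 43.5), and chromosome 21 at 8219569, 267 bp past a 45S end (5.56 and 47.6). The last of these differed between its tables by more than 8-fold. In single tables, the shortest was 0.229 on KI270733v1 at 133572 in replicate 1 and 0.133 on GL000220v1 at 126656 in replicate 2. The longest was 83.3 on GL000220v1 at 119037 in replicate 1 and 111.1 on chromosome 21 at 8402105 in replicate 2.

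A cluster upstream of the second KI270733v1 unit split by buffer. Between 624 and 662 bp before the inferred 45S start, 8 sites lay within a stretch seen in this unit alone. The 5 sites listed with sarkosyl ran from 0.384 to 0.544 in replicate 1 and from 0.513 to 0.672 in replicate 2. The sites listed without it ran from 2.04 to 20.0 in replicate 1 and from 10.9 to 55.6 in replicate 2. Only the site at 166701 was common to the buffers, and there the times were 0.544 and 0.672 with sarkosyl, against 20.0 and 43.5 without it.

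The 72 rDNA sites in all 4 tables were then read from a fit with limma, a linear-model test that pools the spread over sites, over all 2967 sites that the 4 tables share, after each table was centred on its median. By Benjamini-Hochberg adjusted p under 0.05, limma called 0 of the 72 rDNA sites, against 0% of all sites tested. At an unadjusted p under 0.05, 19 rDNA sites at 7 repeat positions were longer with sarkosyl, or 26.4%, against 12% of all sites tested. At the same p, 6 at 5 positions were shorter, or 8.33%, against 11.2% of all sites tested. Centred times of the buffers did not overlap at 33 rDNA sites that were longer with sarkosyl, or 45.8%, against 31.6% of all sites tested. They did not overlap at 10 that were shorter, or 13.9%, against 25.7% of all sites tested. The 33 longer sites stand at 14 repeat positions and the 10 shorter ones at 7, and copies of a position are not independent. These position counts can be too high, since sites of 1 place can be named from different gene ends. On KI270733v1, the longer sites at 133255 and 178334 stand at the same distance from their 28S start. They count as separate positions because the incomplete unit has no annotated 28S end. These shares count each copy, so they rest on few separate positions. They cannot show whether separate positions were longer or shorter more or less often than all sites tested.

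The number of calls differed between the alternatives. Without replicate 1 of the sarkosyl-free buffer, limma called 1597 of the 2967 sites and 30 of the 72 rDNA sites; without its replicate 2 it called 660 and 5. In these fits the lone table without sarkosyl is assumed to vary like the 2 tables with it, from which all the residual spread comes. Quantile normalization gave 158 and 9, normal scores of ranks 231 and 11, and the replicate number as a block 161 and 7. With the block, all 7 rDNA sites called had the same SE of 1.13, so that fit used a common spread rather than each site's own.

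The sites that differed most stood in few places. Of the 49 sites in 28S, 26 were longer with sarkosyl and 5 shorter without overlap. That is 53.1% and 10.2%, against 31.6% and 25.7% of all sites tested, and the median difference was 1.20 on the log2 scale. Copies of a position count separately in these values. Positions +71 and +99 gave 7 of the longer sites each, and all 5 shorter ones lay 296 or 297 bp before the 28S end. All 16 sites at +71, +91 and +99, a grouping made after their values were seen, were among the longer ones, with a median difference of 3.31. In 18S, 5 of 6 were longer and 1 shorter, or 83.3% and 16.7%, against the same shares of all sites. The longer ones were 4 copies of position +97 and 1 site at +77, and the shorter one was at +65. In the 5′ spacer 2 of 7 were longer and 1 shorter, or 28.6% and 14.3%, near the share over all sites or below it. In the 3′ spacer 0 of 7 were longer and 2 shorter, the latter 28.6%, near the 25.7% of all sites. Over all 72 rDNA sites the median difference was 0.18, beside 0.22 over all 2967 sites. Leaving out the centring shifted every difference by -0.14. The rDNA median then was 0.043, and it turned to -0.092 with quantile normalization and -0.060 with normal scores, so the repeat as a whole had no stable direction.

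The largest differences toward longer times with sarkosyl were at 28S position +99. On GL000220v1 at 157419 the times were 27.0 and 5.56 with sarkosyl, against 1.16 and 1.01 without it, a difference of 3.64 (log2, SE 0.99) with a limma adjusted p of 0.171. The sites at the same position on KI270733v1 at 130303, GL000220v1 at 113447 and KI270733v1 at 175382 differed by 3.63, 3.61 and 3.53. The site at position +71 on GL000220v1 at 113419 differed by 3.48. Limma gave adjusted p of 0.170 to 0.173 for these 5 sites. Over 10 alternatives their adjusted p ran up to 0.981; the 4 sites at +99 were called in 4 alternatives each and the one at +71 in 2. The size differed with the sarkosyl table left out: without replicate 1 the 5 differences were 2.02 to 2.47, and without replicate 2 they were 4.61 to 4.95.

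The largest difference toward shorter times was at the upstream site on KI270733v1 at 166701. It differed by -5.47 (log2, SE 0.77), with a limma adjusted p of 0.155, and was called in 5 of 10 alternatives, with adjusted p from 0.00148 to 0.981. Chromosome 21 at 8208946 in the 5′ spacer followed at -2.88 (SE 1.09, limma adjusted p 0.197). The sites near the 28S end, chromosome 21 at 8401683 and 8445915 and KI270733v1 at 134983, differed by -2.71, -2.70 and -2.51, with limma adjusted p of 0.181 to 0.205. None of these 5 passed the adjusted threshold. Without replicate 2 of the sarkosyl-free buffer the last 3 differed by -1.42, -1.61 and -1.35 and the 5′ spacer site by -1.47; without its replicate 1 they differed by -4.00, -3.79 and -3.66 and by -4.30.

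**Figure D5:**
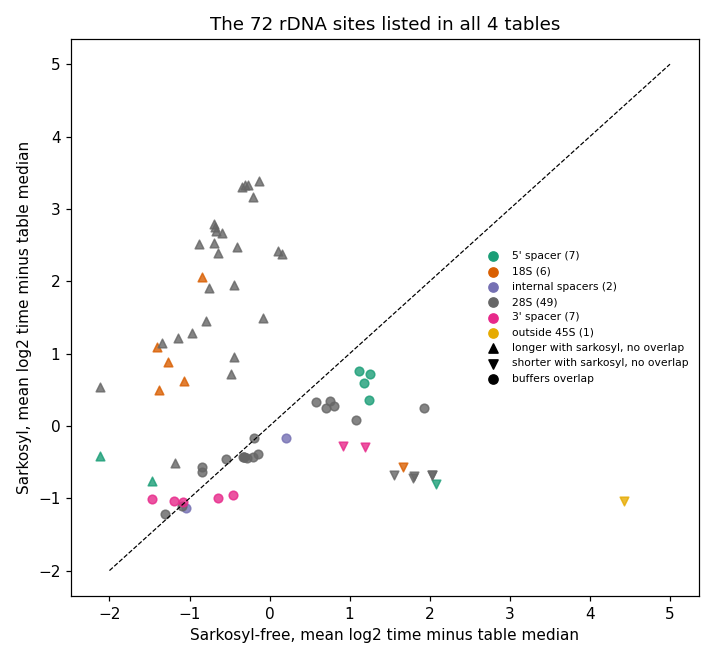
Mean log2 pausing time minus the table median with sarkosyl (y axis) against that without it (x axis) for the 72 rDNA sites in all 4 tables, coloured by part, with the dashed line at equality. Upward triangles are the 33 sites longer with sarkosyl without overlap and downward triangles the 10 shorter ones; the highest 28S sites at the upper left are those near the start of the gene, and the single upstream site lies farthest to the right.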

How the data were processed

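Per the labels, run-on libraries were made from HEK293 cells. Per the submitters' processing notes, reads were handled with cutadapt 1.14, HISAT2 2.1.0, SAMtools and bedtools on hg38. How reads matching several rDNA copies were placed, how sites were called and the rate model were not given in the sources used here. Per the file headers, the deposited tables hold the mean, SD, quartiles and median of a fitted rate, in 3 decimals, and a pausing time, which equals 1 over the median in every row. Value columns that could not be mapped numbered 0.

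Units were placed by GENCODE release 29 and RefSeq genes (GRCh38.p14). In 3 incomplete units the 45S start was inferred from the promoter RNA gene RF01518, which lies 137 bp before the 45S start in the complete units, and the 28S start on the contigs from the complete unit of the same contig. A repeat position is the exact distance from the nearest gene start or end, with no sequence alignment. Units differ in length and in annotated ends, so 1 place can have more than 1 name. Positions count from 1, since C and G stand at the listed base on both strands.

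Times were analysed as log2 in Python 3.11.15 (pandas 2.3.3, numpy 2.4.6, scipy 1.17.1, matplotlib 3.10.9), and tested with limma 3.58.1 in R 4.3.3 (lmFit and eBayes, Benjamini-Hochberg over 2967 sites, adjusted p under 0.05), on tables centred on their medians. The limma fit was also run on simulated data with changes put in, and that outcome is not reported here. Members, lists and tests were chosen with earlier results of these data known. Named sites were, by rule, up to 5 per direction with the largest difference among sites in all 4 tables whose buffers do not overlap, the 3 longest and 3 shortest per buffer, the 5 repeat positions with most values, and the extremes of each table; the other positions were picked after their values were seen. Alternatives changed scaling, centring, the prior, the replicate block, the comparison sites, the summary and the tables used.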

Additional observations from a re-analysis of the deposited data

How the results depend on the processing

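Of 34 alternatives to the 14 levels, 25 kept the value within the SD of 2 tables, 8 moved it and 1 reversed it; leaving out 1 of 2 tables cannot move a mean beyond that SD, so it is no check of a level and is not among the 34. Of 16 alternatives to the 4 counts and shares, 8 moved the value by over 1.5 times or beyond its spread. The count of called sites (0 of 2967, and 0 of 72 in rDNA) rose to 158 and 9 with quantile normalization, 231 and 11 with normal scores of ranks, and 161 and 7 with the replicate number as a block. Leaving out 1 table gave 0 to 1597 calls in all and 0 to 30 in rDNA; the highest came without a sarkosyl-free table, where the lone one is assumed to vary like the tables with sarkosyl. The cause was not tested. The block rests on a shared number only: replicate 1 minus replicate 2 correlated at 0.01 between buffers across the shared sites, so the numbers do not pair the tables.

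The gap of -1.24 between rDNA and other sites without sarkosyl was -0.89 with means, -1.02 with 1 value per repeat position and -0.039 among the more certain sites. Relative to all rDNA sites, the 5′ spacer without sarkosyl came to 0.36 with means, and 28S with sarkosyl to 0.23 with 1 value per position. The 3′ spacer with sarkosyl reversed to 0.055 with 1 value per position and came to -0.14 with means; without sarkosyl it came to 0.29 and 0.28. Matching sites within 5 bp raised the share found in both tables to 81.7% with sarkosyl and 80.0% without it. None of the 10 sites with the largest differences was called in the fit as designed; of 100 alternatives 72 left them uncalled, 28 passed the threshold and 0 changed direction.

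Not run were sense against antisense, since no site was antisense, and copies with identical flanking bases, since no genome was used here. Depth is unknown, so a position that is not listed cannot be read as one without polymerase.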
